A study of Mus musculus with 24 samples.

Results

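A set of chromatin regions of cultured mouse keratinocytes was open, among the arms given doxycycline (DOX), only in those labelled as without full-length SOX9. It was not open before DOX either. The assay was ATAC-seq, where the transposase Tn5 cuts accessible DNA, and the authors called peaks on the 2 pooled replicates of each group. The peaks of the 7 culture lists were merged wherever they overlapped by at least 1 bp, which gave 97078 regions. The members were selected on measured peak presence: a region had to hold a peak in the noHMG-SOX9, noTA-SOX9 and AFOS lists and none in the noDOX, WT-SOX9, SOX9+AFOS and SOX9+ARID1a lists. This rule kept 2260 regions, 2.33% of the total.

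All 7 culture groups were keratinocytes taken from the back skin of male CD1 mice and carried K14rtTA, a Krt14-driven transactivator that switches on TRE genes under DOX. The labels give K14rtTA; TRE-myc-Sox9 for noDOX (no DOX) and WT-SOX9 (DOX at 1 µg/ml). A length of 3 days on DOX is labelled for replicate 1 of WT-SOX9, noHMG-SOX9 and noTA-SOX9, and the labels used here give none for the AFOS, SOX9+ARID1a and SOX9+AFOS cultures, whose peak names contain dox3d. The labels of the other arms, all with DOX, name TRE-myc-Sox9noHMG for noHMG-SOX9, TRE-myc-Sox9noTA for noTA-SOX9 and TRE-FLAG-AFOS for AFOS. SOX9+AFOS is labelled K14rtTA; TRE-myc-Sox9; TRE-FLAG-AFOS and SOX9+ARID1a K14rtTA; TRE-myc-Sox9; TRE-ARID1a. The other 5 peak lists came from sorted epidermal cells of K14rtTA; TRE-myc-Sox9 males, taken at postnatal day 21 before DOX (D0), at day 28 (W1), day 35 (W2) and day 63 (W6) under DOX, and from grafts after 12 weeks (W12), with several mice pooled per replicate. By the study's methods the 3 SOX9 forms reached Krt14-rtTA cells by lentivirus, as did AFOS alone, whereas the SOX9+AFOS and SOX9+ARID1a arms were built in Krt14-rtTA;TRE-mycSOX9 cells.

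By the labels, every list that had to lack a peak came from TRE-myc-Sox9 cells and every list that had to hold one came from cells without that transgene, so the cell genotype and full-length SOX9 cannot be told apart. The noDOX cells carry the transgene but were not induced, so a lack of induced SOX9 alone does not set the members apart from noDOX. By the methods, WT-SOX9 shares its parental cells with the 3 lists that hold the members. No uninduced list of the noHMG-SOX9, noTA-SOX9 or AFOS cells was used here. The replicates were pooled before peak calling, so no spread between replicates can be given, and the read depth behind a peak is unknown. The intervals below are 95% Wilson intervals and cover counting error over regions alone.

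The delivered genes were checked first, because Tn5 can also cut an introduced coding sequence, whose reads would fall on exons. Coding exon 2 of Sox9 lay under a peak in WT-SOX9, noHMG-SOX9, noTA-SOX9, SOX9+AFOS and SOX9+ARID1a, and under none in noDOX and AFOS. Coding exon 3, the last, had a peak over 97.0% of its length in WT-SOX9 and 98.3% in noHMG-SOX9, 87.9% in SOX9+AFOS and 86.8% in SOX9+ARID1a. It had one over 63.04% in noDOX and none in noTA-SOX9 and AFOS. The list labelled noTA-SOX9 was thus without a peak on the exon that encodes the C-terminal end of SOX9, where the TA domain lies. In the list labelled noHMG-SOX9 a single peak (71.9) ran over 98.4% of coding exon 1, all of exon 2 and most of exon 3. WT-SOX9 also had a single peak (21.2) over these exons. Such a peak call spans the introns as well, so it cannot show whether the HMG domain is missing. Of the 20 coding exons of Arid1a, 18 held a peak in SOX9+ARID1a, 1 each in noDOX, noHMG-SOX9 and noTA-SOX9, and 0 in WT-SOX9. The lists labelled AFOS and SOX9+AFOS, whose labels name no ARID1a, had peaks on 10 and 7 of these exons. At Fos the first coding exon had a peak in every list and the other 3 had none, so the peaks gave no sign of the AFOS construct in the lists labelled AFOS and SOX9+AFOS. The part of these Arid1a peaks in the members' pattern was not tested. With the AFOS list left out of the rule 3027 regions were chosen, 33.4% of them with an AP1 match, and with neither AFOS, SOX9+AFOS nor SOX9+ARID1a in the rule 3950 were chosen, 32.9% with a match.

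SOX9 is a transcription factor of hair follicle stem cells that binds DNA through its HMG domain and recruits co-factors through its transactivation (TA) domain. As a pioneer factor it can open closed chromatin, and in epidermal stem cells its induction leads towards a hair follicle fate. AP1 is a dimer of FOS and JUN family proteins, abundant in keratinocytes, that binds TGACTCA and its reverse complement TGAGTCA. AFOS is a dominant negative form of FOS that pairs with AP1 partners and keeps them off DNA. ARID1A belongs to SWI/SNF, a complex that remodels nucleosomes.

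The sequences below show what the AP1 result rests on. They are short windows of the GRCm38.p6 plus strand around an AP1 match, printed in lower case with each match in capitals, for 4 of the 10 members with the strongest peaks and for members near Snai1, Runx1, Ptpn14 and Fosl1.

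Dynlt1c (chr17:6614962-6615062): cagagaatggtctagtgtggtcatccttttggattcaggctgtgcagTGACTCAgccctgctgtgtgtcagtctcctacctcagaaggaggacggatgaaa
Gm10801 (chr2:98298446-98298546): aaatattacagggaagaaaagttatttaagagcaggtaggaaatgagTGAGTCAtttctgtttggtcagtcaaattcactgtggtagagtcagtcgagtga
Galnt10 (chr11:57707519-57707619): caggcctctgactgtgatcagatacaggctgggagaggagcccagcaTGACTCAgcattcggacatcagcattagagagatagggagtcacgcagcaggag
Camta1 (chr4:151618704-151618804): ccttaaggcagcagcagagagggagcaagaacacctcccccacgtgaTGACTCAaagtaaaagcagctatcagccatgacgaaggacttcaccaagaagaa
Snai1 (chr2:167550512-167550612): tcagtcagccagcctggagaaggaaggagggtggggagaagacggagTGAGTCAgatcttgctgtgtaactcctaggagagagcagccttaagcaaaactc
Runx1 (chr16:92740191-92740291): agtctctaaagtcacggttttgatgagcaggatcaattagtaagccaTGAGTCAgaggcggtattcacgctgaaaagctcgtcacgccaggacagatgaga
Ptpn14 (chr1:189838137-189838237): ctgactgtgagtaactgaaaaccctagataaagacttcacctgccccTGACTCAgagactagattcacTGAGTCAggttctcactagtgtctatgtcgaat
Fosl1 (chr19:5451888-5451988): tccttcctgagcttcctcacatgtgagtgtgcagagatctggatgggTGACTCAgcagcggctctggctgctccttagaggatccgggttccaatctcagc

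For contrast, the next 2 windows come from the strongest regions that were open only in the 3 arms with full-length SOX9 under DOX and that hold a SOX match, which is in capitals (ACAATAG or ACAATGG on either strand).

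Bmp2k (chr5:96957037-96957137): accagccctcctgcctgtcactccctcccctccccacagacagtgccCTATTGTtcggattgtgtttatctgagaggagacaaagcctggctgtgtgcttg
Dock2 (chr11:34739023-34739123): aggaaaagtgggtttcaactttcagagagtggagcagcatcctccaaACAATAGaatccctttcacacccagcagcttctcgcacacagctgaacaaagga

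The first question was how common the members' pattern was among the culture regions. Of the 35 possible combinations of 3 lists, the members formed the second largest class, with 2260 of the 10252 regions found in exactly 3 lists (22.0%). The largest class was its opposite in SOX9 content, the 2352 regions open under DOX in WT-SOX9, SOX9+ARID1a and SOX9+AFOS alone. The next combination, noDOX with SOX9+AFOS and SOX9+ARID1a, held 771 regions, and the median combination held 132. The mirror image of the members, with peaks in the 4 lists the members lack and in no other, held 891 regions. These counts follow from the rule and are given as a description.

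**Figure D1:**
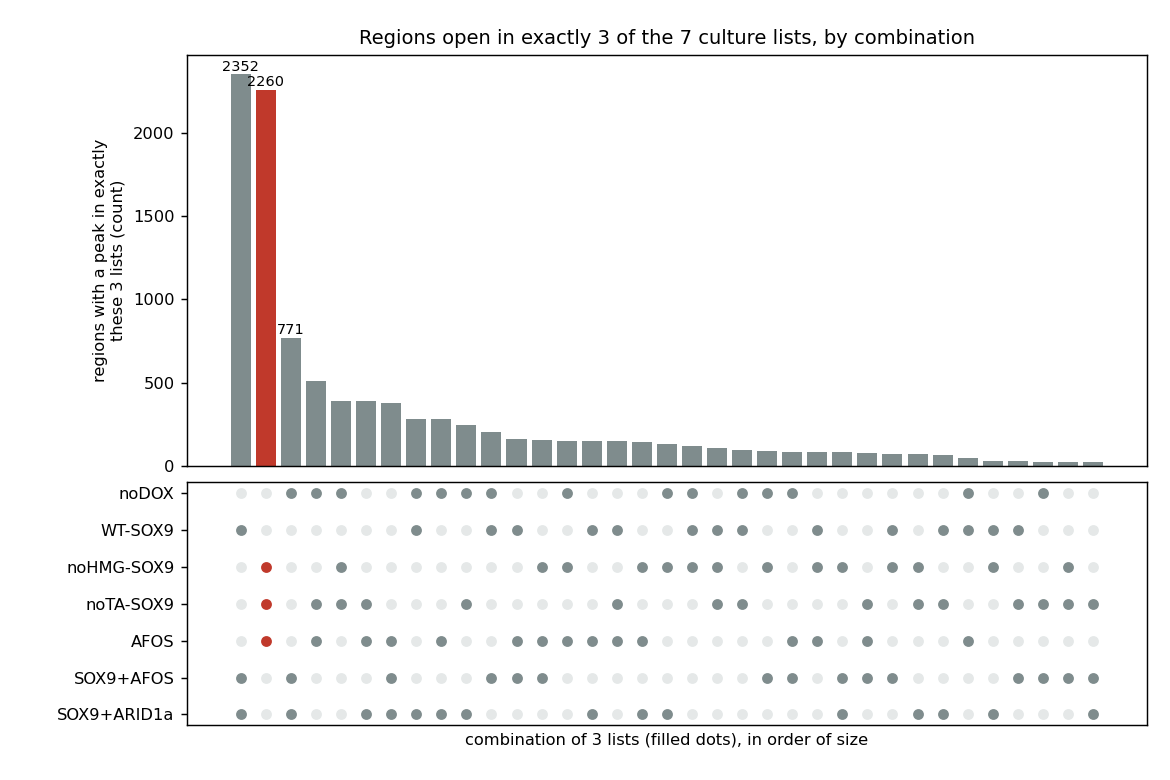
The bars count the regions with a peak in exactly the 3 culture lists marked by filled dots, for all 35 combinations in order of size. The members (red, 2260) and the regions of the SOX9-active arms (2352) stand well above the next combination (771).

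Members were a small part of what each of the 3 arms had open. Relative to noDOX, noHMG-SOX9 opened 7905 regions (17.7% of the 44677 regions closed without DOX), noTA-SOX9 opened 14337 (32.1%) and AFOS opened 15439 (34.6%). The same noDOX list served for the 3 counts. The members were 28.6% of the regions opened in noHMG-SOX9, 15.8% of those in noTA-SOX9 and 14.6% of those in AFOS. A further 10027 regions were open in only 1 of the 3 lists and 4344 in 2 of them, again with no peak in the other 4 lists. Most of the 41349 regions that the 3 lists had in common were open in every culture list (24536), and members were 5.47% of them.

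The members were weak peaks in their lists. Each deposited score is the authors' normalised peak score, with 3 as the lowest value kept. In noHMG-SOX9 the members' scores ran from 3.002 to 24.0 with a median of 4.85, against a median of 10.3 over all peaks of that list. In noTA-SOX9 they ran from 3.01 to 48.8 with a median of 7.37 (9.60 over the list), and in AFOS from 3.004 to 48.0 with a median of 7.04 (9.52 over the list). The median member thus sat at percentile 20.6, 40.3 and 38.3 of the 3 lists, in the same order. None of the members was among the highest-scoring 10% of the noHMG-SOX9 peaks, and 8 were in each of the other lists.

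**Figure D2:**
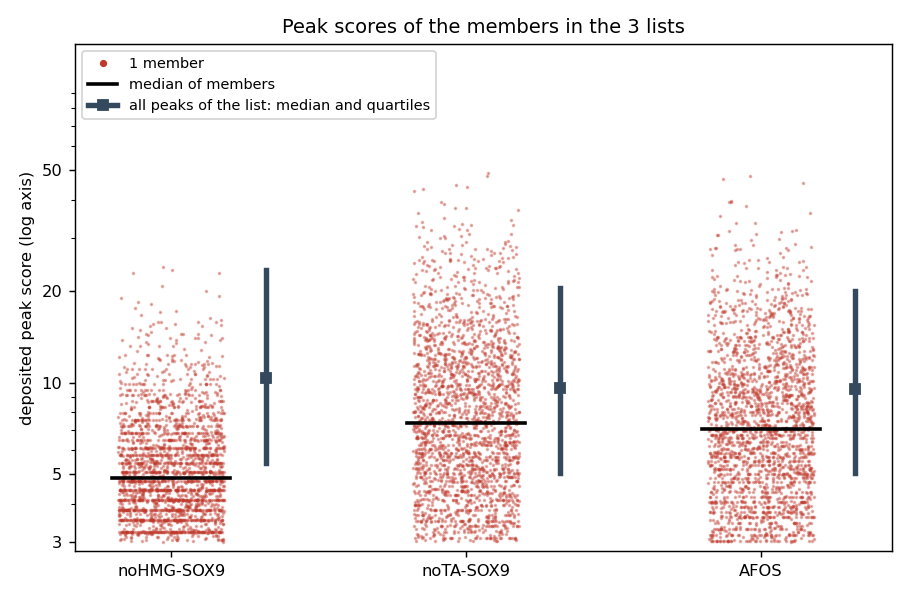
Each red point is the deposited score of 1 member in the list named below it, on a log axis, with the members' median as a black line. The dark bar and square give the quartiles and median of all peaks of the list. The members' medians (4.85, 7.37 and 7.04) lie below the list medians, most of all in noHMG-SOX9.

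The list that limited membership was most often noHMG-SOX9, which held the lowest of a member's 3 scores in 1324 members (58.6%). AFOS held it in 517 and noTA-SOX9 in 419. Scores over 10 were found for 129 members in noHMG-SOX9, 739 in noTA-SOX9 and 635 in AFOS. Across the 2260 members, Spearman's rho between the scores of 2 lists was 0.33 for noHMG-SOX9 and noTA-SOX9, 0.31 for noHMG-SOX9 and AFOS and 0.32 for noTA-SOX9 and AFOS. These are descriptions across regions that had all passed the same threshold. The peaks of a member lay on each other, which the merging of overlapping peaks largely sets. Of the 2260 members, 2255 had at least 1 base inside a peak of each of the 3 lists. The median shared stretch was 212 bases in a median region of 511.5 bp.

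The rule has a threshold, and many members lay close to it. The lowest of the 3 scores was under 4 in 968 members (42.8%), at least 5 in 763 (33.8%) and at least 10 in 75 (3.32%). Just inside the rule was a region 1966 bp from a transcription start site (TSS) of Sat1, a polyamine acetyltransferase gene, with scores of 3.002 in noHMG-SOX9, 3.82 in noTA-SOX9 and 3.36 in AFOS. Next to it came regions near Cbfa2t3, Mphosph6, Kcnd2 and Nkain1, whose lowest scores were 3.002, 3.004, 3.007 and 3.007.

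Just outside the rule was an intronic region of Gabrr2, a GABA receptor subunit gene, which scored 5.43, 7.22 and 7.10 in the 3 lists but also 3.001 in noDOX. The next was a region near Plg, the plasminogen gene, kept out by a SOX9+AFOS peak of 3.01. Regions near Ttc39b, Stk17b and Cnih3 were kept out by SOX9+ARID1a peaks of 3.01 each. In all, 3089 regions missed membership by a single list: 2160 had a noDOX peak, 606 a SOX9+ARID1a peak, 228 a WT-SOX9 peak and 95 a SOX9+AFOS peak. Of these 3089 peaks, 920 (29.8%) scored under 4. Absence of a peak is therefore absence of a call at this threshold and not proof of closed chromatin.

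The rule leaves out any region that a peak of the 4 other lists overlaps, so the distances below are partly set by it. No other class of region was measured in this way. A noDOX peak was within 1 kb of 136 members (6.02%), a WT-SOX9 peak of 119, a SOX9+ARID1a peak of 121 and a SOX9+AFOS peak of 105. The median distance from a member to the nearest peak of any of the 4 lists was 8081 bp. The members were scattered: the median gap between neighbours on a chromosome was 507363 bp, and 50 gaps were within 10 kb, against 120 in the 2352 regions of the SOX9-active arms.

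The strongest member, by the lowest of its 3 scores, was chr17:6614817-6615113. It lies 13294 bp from a TSS of the dynein light chain gene Dynlt1c, scored 23.4 in noHMG-SOX9, 48.8 in noTA-SOX9 and 35.4 in AFOS, and holds 2 AP1 matches. The second, chr2:98298254-98298775, lies 363722 bp from the nearest protein-coding TSS (Gm10801) and scored 23.0, 23.0 and 27.6 in the same order. The third, chr6:86076182-86076986, is in an intron of Add2, the gene of the membrane skeleton protein beta-adducin, 1473 bp from its TSS, with scores of 22.9, 33.8 and 25.1. Of the 10 strongest members, the Add2 region alone overlapped a peak in skin, with a score of 4.96 at W6 and 6.21 at W12 and no peak at D0, W1 or W2.

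The other 7 of the strongest 10 members were intronic or intergenic. An intergenic region 39067 bp from Pde4b, a cAMP phosphodiesterase gene, scored 19.3 in noHMG-SOX9, 22.4 in noTA-SOX9 and 19.7 in AFOS. A region 504185 bp from Lcorl scored 18.2, 21.5 and 19.9. In an intron of Hhip, whose product binds and sequesters hedgehog ligands, chr8:80032072-80033060 scored 24.0, 18.1 and 26.7. The Stk39 intron member scored 20.03, 21.8 and 18.1, and 86.0% of its central 200 bp is repeat-masked.

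The last 3 of the 10 lay in introns. The Galnt10 member (chr11:57707174-57707878), in a gene for an enzyme that starts mucin-type O-glycosylation, scored 20.8, 28.3 and 17.2. The Camta1 member (chr4:151618403-151618986) scored 17.2, 26.2 and 36.1, and the Gfra1 member (chr19:58391887-58392365), in the gene of a GDNF co-receptor, scored 19.0, 36.9 and 17.1. AFOS gave the highest of the 3 scores for Camta1, and noTA-SOX9 for Galnt10 and Gfra1. None of these 7 regions overlapped a peak in any of the 5 skin lists.

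Skin peaks were not used by the rule, so the next question was whether the members were open in epidermal cells in vivo. They seldom were: 604 of 2260 members (26.7%, interval 24.9 to 28.6%) overlapped a peak in at least 1 of the 5 skin lists, against 59.7% of all culture regions and 62.2% of the regions of the SOX9-active arms. At D0, 226 members (10%, interval 8.83 to 11.3%) held a peak, against 39.1% of all culture regions. At W1 the share was 8.32% (interval 7.25 to 9.53%), again against 39.1%, and at W2 9.82% (interval 8.66 to 11.1%) against 43.8%. At W6 it was 16.99% (interval 15.5 to 18.6%) against 51.1%, and at W12 21.5% (interval 19.8 to 23.2%) against 51.3%. With skin peaks of a score of at least 5 only, the members' share was 6.68% at D0, 6.86% at W2 and 9.60% at W6. The W6 share and its distance from D0 were thus both smaller. The share of all culture regions at that skin threshold was not computed. The members' intervals did not reach those of all culture regions at any of the 5 times. The low share was not particular to the members: a peak in any skin list was held by 15.7% of the regions open in AFOS only, 24.4% of those in noTA-SOX9 only, 32.6% of those in noHMG-SOX9 only and 20.5% of those in noTA-SOX9 and AFOS only.

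The course over time differed in shape from that of the SOX9-active arms. Regions of the SOX9-active arms had shares of 14.6% at D0 and 14.2% at W1. Their W2 share was 48.6%, their W6 share 56.1% and their W12 share 48.2%. The members' share at W2 lay within its interval at D0, and their higher shares came at W6 and W12, where the skin lists were also longer (75956 and 71503 peaks, against 57334 at D0). Regions closed at D0 and W1 but open at W2, W6 and W12 made up 2.26% of the members (51 regions), 26.4% of the SOX9-active regions and 5.25% of all culture regions. Regions first open at W6 or W12 made up 12.3% of the members (279 regions), 11.9% of the SOX9-active regions and 9.80% of all culture regions. The mirror regions, open in noDOX and the SOX9-active arms, had 48.3% at D0 and 74.97% at W6.

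**Figure D3:**
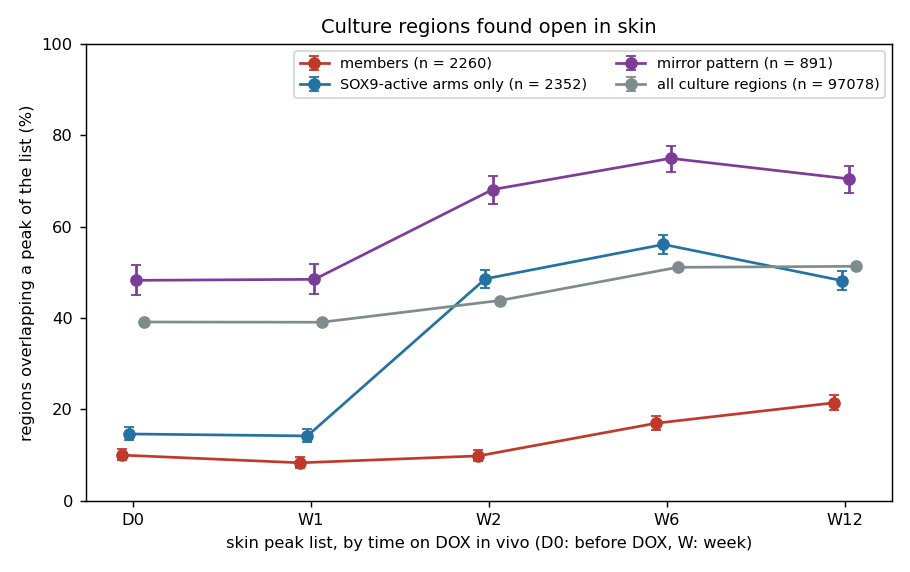
Lines give the percentage of each class of culture region that overlaps a peak of the skin list on the x axis, with 95% Wilson intervals. The members stay between 8.32% and 21.5%, below the other 3 classes at every time, while the SOX9-active regions go from 14.2% at W1 to 48.6% at W2.

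Within the members, 1656 were open in no skin list, 123 at W12 only, 108 at W6 and W12, 97 at all 5 times, 51 at W2, W6 and W12, and 48 at W6 only. Members that were open in skin were weak there too: their median score was 6.84 at D0 and 5.97 at W12, against 13.6 and 11.1 over all culture regions with a peak in those lists. The median fold enrichment over local background, which the authors' peak caller gives for the skin lists, was 7.73 at D0 and 6.23 at W12 for the members and 9.80 and 7.77 for all culture regions. Members with stronger culture peaks were no more often open in skin. Of the 452 members whose lowest score was highest (6.01 or more), 22.3% had a skin peak (interval 18.8 to 26.4%), against 29.9% (interval 25.8 to 34.2%) of the 452 weakest (3.42 or less).

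A few members stood out in skin by their values. The Dlg2 intron region chr7:90650769-90652161, which scored 3.53, 3.81 and 7.62 in the 3 culture lists, scored 42.6 at D0 and 19.8 at W1, and between 14.4 (W6) and 30.3 (W2) later on. The Runx1 intron member, in the gene of a transcription factor of hair follicle stem cells, had no peak at D0 or W1 and scored 6.34 at W2, with 12.5 and 14.8 at the later times. The member whose nearest TSS is that of Wnt3 lies 78949 bp from it, in an intron of Nsf. This member scored 32.2 at D0 and 36.5 at W1, had no peak at W2, and scored 5.70 at W6 and 9.10 at W12. The Dlg2 and Wnt3 examples were chosen after their values were seen.

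The members' DNA was scanned for 20 motifs in the central 200 bp of each region, on both strands. AP1 matches (TGACTCA or TGAGTCA) were found in 820 members, 36.3% (interval 34.3 to 38.3%). The same scan gave 21.01% (interval 20.8 to 21.3%) of all culture regions, 4.76% (interval 3.97 to 5.70%) of the regions of the SOX9-active arms and 11.6% (interval 9.62 to 13.8%) of the mirror regions. SOX matches (ACAATAG or ACAATGG) gave the opposite order, with 94 members (4.16%, interval 3.41 to 5.06%), 6.30% of all culture regions, 10.7% of the mirror regions and 20.2% of the SOX9-active regions. Over the full region the AP1 share was 56.6% of members and 36.3% of all culture regions, and the SOX share 12.1% and 15.5%. Of the members, 740 held 1 AP1 match, 75 held 2 and 5 held 3. A match is a run of letters and not a bound site.

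Neither share was particular to the members. SOX matches were in 3.85% of the regions of noTA-SOX9 only, 4.31% of those of noTA-SOX9 and AFOS only, 2.55% of those open in noDOX as well as the members' 3 lists and 3.40% of those open in all 7 lists. The AP1 share was 39.1% in regions of noTA-SOX9 and AFOS only, 33.2% in noTA-SOX9 only, 32.6% in AFOS only and 17.7% in noHMG-SOX9 only. The regions with peaks in the members' 3 lists and in noDOX had 35.8%, and those with SOX9+ARID1a as the fourth list 39.1%. With WT-SOX9 as the fourth list it was 25.4% of 228 regions, and with SOX9+AFOS 6.32% of 95. Among the 35 combinations of 3 lists the members ranked 7 by AP1 share, and the first was noDOX with AFOS and SOX9+ARID1a at 41.0% of 283 regions. The 15 combinations that include SOX9+AFOS, as the SOX9-active class does, had 0 to 22.7%. Of the other 20, 15 had 28.8 to 41.0%, and 5 were low. All 5 include WT-SOX9: with noDOX and noTA-SOX9 the share was 5.16%, with noHMG-SOX9 and noTA-SOX9 9.43%, with noDOX and noHMG-SOX9 9.92%, with noHMG-SOX9 and SOX9+ARID1a 13.3% and with noHMG-SOX9 and AFOS 16.7%, over 30 to 121 regions each. The other 5 combinations with WT-SOX9 and without SOX9+AFOS had 33.8 to 40.3%. Regions open in all 7 lists had 15.9%, and 39.0% of those lie within 1 kb of a TSS.

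Of the other motifs, some shares lay above, some below and some at the level of all culture regions. RUNX matches (TGTGGT) were in 21.2% of members (interval 19.6 to 22.9%) and 17.3% of all culture regions, and both a RUNX and an AP1 match in 7.79% and 3.76%. The share with both was not set against what the single shares would give. GATA matches (AGATAA) were in 12.04% (interval 10.8 to 13.4%) and 9.39%. The AP1 form TGACTCAGC, the core of the antioxidant response element bound by NRF2, was in 3.76% of members (interval 3.05 to 4.63%) and 2.14% of all culture regions. Each such match contains an AP1 match, so it is no motif apart from AP1. It was in 85 of the 820 members with an AP1 match and in 2077 of the 20400 such culture regions. CTCF matches were in 10 members (0.442%, interval 0.240 to 0.813%) against 2.02%, KLF matches in 1.64% (interval 1.19 to 2.25%) against 5.04% and ETS matches (CCGGAA) in 1.99% (interval 1.49 to 2.65%) against 4.21%. Some other classes were as low. In the SOX9-active regions the shares were 0.425% for CTCF, 4.25% for KLF and 2.08% for ETS. In noTA-SOX9 only they were 0.532%, 1.86% and 2.07%, in AFOS only 1.29%, 2.07% and 1.85%, and in noHMG-SOX9 only 5.48%, 4.995% and 3.75%. The members' interval included the share of all culture regions for TEAD (GGAATG; 17.7%, interval 16.2 to 19.4%, against 16.7%), HSF (GAANNTTC; 5.18% against 5.23%), TCF (CTTTGAT; 2.61% against 2.74%), TBX (AGGTGTGA; 1.15% against 1.24%) and P63 (1.15% against 1.03%).

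**Figure D4:**
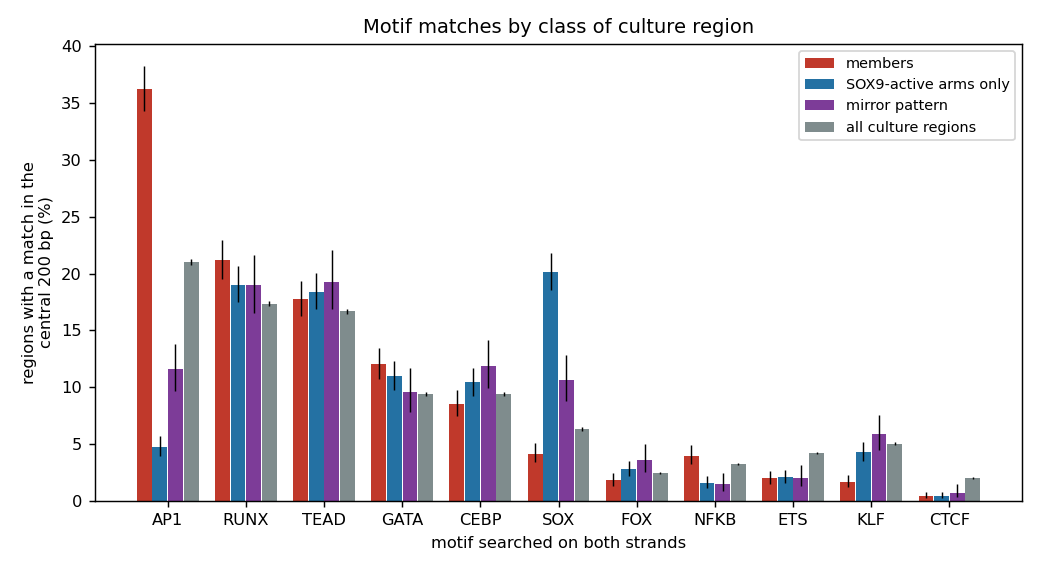
Bars give the percentage of regions with a match in the central 200 bp for 11 of the 20 motifs searched, with 95% Wilson intervals, in 4 classes of culture region. AP1 is highest in the members (36.3%) and lowest in the SOX9-active regions (4.76%), and SOX is lowest in the members (4.16%) and highest in the SOX9-active regions (20.2%).

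Members with and without an AP1 match had like scores. The median was 4.83 against 4.87 in noHMG-SOX9, 7.65 against 7.29 in noTA-SOX9 and 6.92 against 7.13 in AFOS. Across the members ordered by their lowest score and split into 5 sets of 452, the AP1 share was 36.9%, 35.6%, 36.1%, 37.2% and 35.6% from the strongest set to the weakest. A skin peak was held by 24.9% of the members with a match and 27.8% of those without. A match lay within 25 bp of the region's centre in 33.7% of the 820 members that hold one, and in 32.7% of all culture regions that hold one. The strongest member without a match was the Add2 intron region described above.

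The members were mostly distal, as were culture regions in general. Of the 2260, 1075 (47.6%) were centred in introns of protein-coding genes, 876 (38.8%) between genes, 155 in other genes, 47 in UTR exons, 32 in coding exons and 75 (3.32%, interval 2.66 to 4.14%) within 1 kb of a protein-coding TSS. Among the 763 members with a score of at least 5 in the 3 lists the share near a TSS was 1.83% (interval 1.10 to 3.06%). Over all culture regions 14% lay within 1 kb of a TSS, and in the SOX9-active arms 3.06%. Introns held 40.1% of all culture regions and intergenic stretches 35.8%. Other genes, UTR exons and coding exons held 6.86%, 2.08% and 1.42% of the members, against 6.5%, 2.31% and 1.25% of all culture regions. The median distance to a TSS was 26454 bp for the members, 26433 bp for the SOX9-active regions and 19836 bp for all culture regions. The median GC content of the central 200 bp was 47.5%, against 48.5% overall.

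Among the 75 promoter members were those of Hmox1, the heme oxygenase gene of the oxidative stress response, and Csf2, the gene of the cytokine GM-CSF. The Hmox1 member (chr8:75092710-75093080), 726 bp from a TSS, scored 6.40 in noHMG-SOX9, 14.3 in noTA-SOX9 and 9.75 in AFOS. The Csf2 member (chr11:54249011-54250010), 156 bp from a TSS, scored 4.43, 15.9 and 7.04. A member 104 bp from a TSS of Cdkn2a, which encodes the cell cycle inhibitor p16INK4a and p19ARF, scored 7.93, 5.39 and 16.5. None of these 3 promoter members overlapped a skin peak. Csf2 and Cdkn2a were named here after their values were seen.

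Members were spread thinly over genes. They were nearest to 1869 protein-coding genes, of which 1575 had a single member, 224 had 2 and 70 had 3 or more. Dlg2, the gene of a synaptic scaffold protein, had the most, with 8 of its 52 culture regions, all in its introns. Next came En1, a homeobox gene, with 6 of 15, and Sema6d, a semaphorin gene, with 6 of 21. Fyn, a Src family kinase gene, had 5 of 20, Gcfc2 5 of 27, the glutamate receptor gene Grm7 5 of 29 and Mtdh 5 of 17. In all, 15 genes had 4 or more members. Of those tied at 4, the first 3 by symbol were Anks1b (4 of 23), Etl4 (4 of 54) and Gfra1 (4 of 22).

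At Dlg2 the strongest member was chr7:91817679-91818484, with 11.5 in noHMG-SOX9, 37.5 in noTA-SOX9 and 39.7 in AFOS, and the region chr7:91775918-91776406 scored 6.47, 30.0 and 21.3. Both lie in introns, and neither overlapped a skin peak. At En1 the strongest was chr1:120667945-120668720, 65915 bp from the TSS, with 8.31, 14.6 and 7.86. One En1 member, at 285 bp, is at the promoter and scored 4.61, 3.43 and 3.23. At Sema6d 4 of the 6 members overlapped a skin peak, among them chr2:124576866-124578032, which scored 4.45, 19.2 and 8.95 in culture and 7.41 at W12.

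The members were next set against 18 gene lists of keratinocyte and follicle biology. The lists hold 292 genes, 65 of which were nearest to at least 1 member, and 81 of their 3734 culture regions were members (2.17%, interval 1.75 to 2.69%), against 2.33% over all regions. Of the 18 lists, 16 held a member. The keratin lists did not: 0 of 45 regions at basal and suprabasal keratin genes and 0 of 35 at stress and wound keratin genes were members. The intervals of these shares reach 7.87% and 9.89%, so a lower share than the overall one was not detectable at these numbers. The interval of each of the 18 lists included 2.33%.

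Members near transcription factor genes were looked up in 4 lists. Their share of the regions was 0.813% (interval 0.144 to 4.46%) for AP1 subunits, 1.80% (0.914 to 3.51%) for epidermal identity factors, 2.09% (1.06 to 4.07%) for hair follicle stem cell factors and 1.39% (0.543 to 3.53%) for the SOX family, and all 4 intervals include the 2.33% of all culture regions. Of 123 regions nearest to AP1 subunit genes 1 was a member, in an intron of Fosl1, which encodes the FOS family protein FRA1 (chr19:5451632-5452090, with scores of 4.68, 7.22 and 7.55). Epidermal identity factors held 8 of 445: 2 near Tfap2a and 1 each near Gata3, Grhl1, Grhl2, Hes1, Tfap2c and Trp63. The Trp63 member, near the gene of the master regulator of stratified epithelium, was strongest (chr16:25902283-25902799) with 8.63, 6.81 and 6.01. Hair follicle stem cell factors held 8 of 383, 2 each at Sox9, Lhx2 and Nfib and 1 each at Runx1 and Nfatc1, and the SOX family list held 4 of 287.

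At the delivered genes, Sox9 had 2 members, Arid1a 1 and Fos 0. The Sox9 members were chr11:112232425-112232777, 549623 bp from the TSS, with scores of 6.12, 9.15 and 13.9, and chr11:112850456-112851152, 68580 bp from the TSS, with 3.23, 16.1 and 3.46. The Arid1a member was intronic, with 4.45, 3.81 and 13.3.

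Adhesion and signalling genes held members at shares from 2.52% (TGF-beta and BMP) to 3.16% (WNT), with intervals that include the 2.33% of all culture regions. Integrin and basement membrane genes held 9 of 314 regions, with 2 each at Itga2 and Lama3. An intronic member of Itga2, the gene of the alpha 2 integrin subunit of a collagen receptor (chr13:114886607-114887210), scored 6.83 in noHMG-SOX9, 10.2 in noTA-SOX9 and 7.80 in AFOS, and was named after its values were seen. WNT pathway genes held 9 of 285, led by Dkk3, a Dickkopf family gene, with 6.46, 28.7 and 17.5. TGF-beta and BMP genes held 9 of 357, led by Smad3, a signal transducer of TGF-beta receptors, with 7.99, 8.40 and 9.31.

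The remaining lists were of like share. Notch pathway genes held 6 of 200, with the Notch2 member at 4.71, 16.96 and 8.88. Hedgehog genes held 2 of 114, Hhip and Boc. EGF receptor and ligand genes held 3 of 182, at Errfi1, Hbegf and Lrig1. YAP and TEAD targets held 3 of 237, the strongest in an intron of the phosphatase gene Ptpn14 with 6.10, 11.3 and 4.37 and 2 AP1 matches. SWI/SNF genes held 4 of 134, led by Smarca2 with 5.43, 8.02 and 14.7.

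Lists of stress, wounding, plasticity and differentiation had shares from 2.19% (oxidative and heat stress) to 2.36% (EMT factors and cadherins), against 2.33% over all culture regions. Oxidative and heat stress genes held 4 of 183, with Hmox1 strongest. Wound cytokine and inflammation genes held 6 of 257, of which 2 were near Tnfaip3, the gene of the NF-kB inhibitor A20, and 1 each at Csf2, Il1b, Nfkbiz and Tslp. The Tnfaip3 member at chr10:19087041-19087345 scored 7.69, 8.81 and 12.2. EMT factors and cadherins held 6 of 254, led by a region 12405 bp from Snai1, the gene of a repressor of E-cadherin (chr2:167550389-167550811), with 14.2, 11.3 and 20.4. Epidermal differentiation genes held 2 of 89, near Ivl (involucrin) and Tgm1 (transglutaminase 1), the latter with 8.95, 8.84 and 14.9.

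The share of members varied between chromosomes. It was 1.15% of the culture regions on chromosome 5 (68 members, interval 0.911 to 1.46%) and 1.41% on chromosome 16 (interval 1.05 to 1.87%), but 2.90% on chromosome 7 (interval 2.50 to 3.36%) and 3.64% on chromosome 6 (224 members, interval 3.20 to 4.13%). The scores of the 24536 regions open in all 7 lists moved along with it. Relative to noDOX and to the median over all chromosomes, these regions on chromosome 5 scored lower in noHMG-SOX9, noTA-SOX9 and AFOS (log2 shifts of -0.31, -0.31 and -0.35) and in WT-SOX9 (-0.22), and higher in SOX9+AFOS (0.28) and SOX9+ARID1a (0.33). On chromosome 6 the shifts were 0.13, 0.16 and 0.08 in the members' 3 lists, 0.08 in WT-SOX9, -0.19 in SOX9+AFOS and -0.14 in SOX9+ARID1a.

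Over the 20 chromosomes, the share of members and the mean shift of the members' 3 lists minus that of the other 4 had a Pearson r of 0.78 and a Spearman rho of 0.67. The points share the same lists and the noDOX reference, and the correlation is a description. Without chromosomes 5 and 16, which lie farthest from the median shift difference, r was 0.63 over 18 chromosomes. For the regions of the SOX9-active arms the Pearson r was -0.28 and the Spearman rho -0.42. On the 10 chromosomes whose shift difference was at most 0.1, members were 1221 of 52401 regions (2.33%), with shares from 1.60% on chromosome 17 to 2.86% on chromosome 2. The part of chromosome-wide score differences, and of the cells used for each arm, in the members' pattern was not tested. On those 10 chromosomes 38.1% of the members had an AP1 match, 3.93% a SOX match and 10.4% a D0 peak, within the intervals given above for all members.

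**Figure D5:**
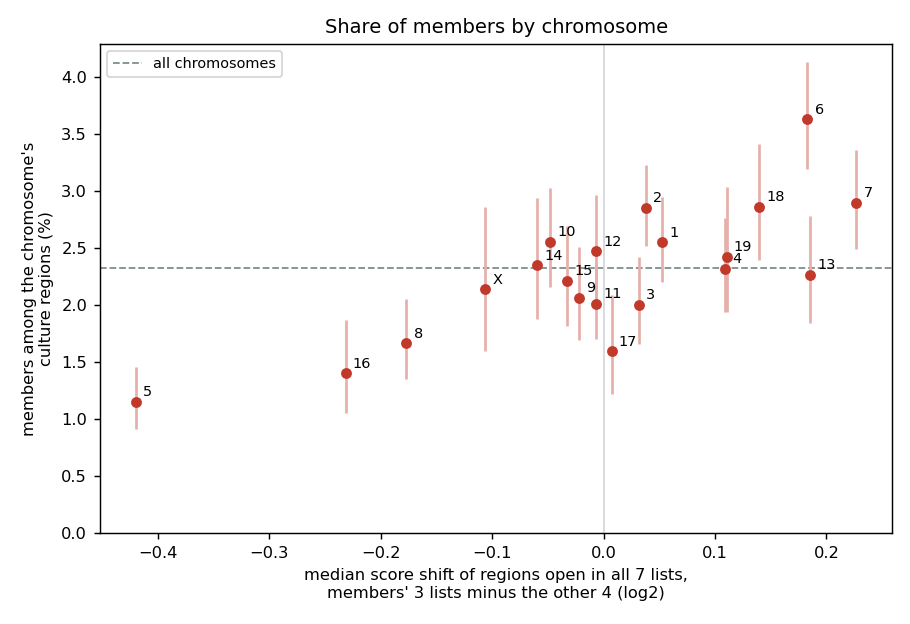
Each point is a chromosome, with the percentage of its culture regions that are members and a 95% Wilson interval on the y axis. The x axis gives the log2 score shift of regions open in all 7 lists, as the mean of the members' 3 lists minus the mean of the other 4. Chromosome 5 lies lowest (1.15%) and farthest left, and chromosome 6 lies highest (3.64%).

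The list labelled AFOS, after an inhibitor of AP1, was one of the 3 that defined the members, so the results were also obtained without it. The AP1 share of regions open in AFOS only was 32.6%, and without AFOS in the rule 3027 regions qualified, 33.4% of them with an AP1 match and 11.4% with a D0 peak. The word fragments stands in the peak names of AFOS, SOX9+ARID1a and SOX9+AFOS but not in those of the other 4 culture lists. With only noDOX, WT-SOX9, noHMG-SOX9 and noTA-SOX9, the rule of peaks in the latter pair and none in the first gave 3950 regions, 32.9% with an AP1 match and 4.23% with a SOX match. The part of the processing behind those names in the members' pattern was not tested.

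Marker promoters were compared with the keratinocyte label. All 8 keratinocyte markers had a peak within 1 kb of a TSS in noDOX, WT-SOX9, noHMG-SOX9, SOX9+AFOS and SOX9+ARID1a, and 7 of 8 in noTA-SOX9 and AFOS, where Krt15 had none. None of the 4 immune markers had one in any list. Of the 5 melanocyte markers 2 had a peak in each of the members' 3 lists and 4 in SOX9+AFOS, which alone among the culture lists had peaks at Dct (17.7) and Mlana (4.49). Of the 5 fibroblast markers 3 had a peak in each of the members' 3 lists, at Vim, Col1a1 and Pdgfra. Of the 3 endothelial markers, Pecam1 had a peak in all 7 culture lists, with scores from 14.5 in noTA-SOX9 to 70.6 in SOX9+ARID1a. Cdh5 had one in noHMG-SOX9 (3.23) and noTA-SOX9 (9.21) only. Kdr had one in each of the 4 lists the members lack (7.75 in noDOX, 6.67 in WT-SOX9, 4.35 in SOX9+AFOS and 6.43 in SOX9+ARID1a) and none in the members' 3 lists. The part of other cell types in the members' pattern was not tested.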

How the data were processed

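ATAC-seq was done on 24 samples in 12 groups of 2 biological replicates. Per the study's methods, paired-end reads were aligned to GRCm38/mm10 with PEPATAC, and peaks were called with MACS2 on merged replicates with duplicates kept. The submitters' processing notes name Bowtie2 2.2.9, Picard 2.3.0, SAMtools 1.9, MACS2 2.1.1 and deepTools 2.5.4. The deposited peak lists hold a score that the authors normalised within each list and thresholded at 3. The in vivo lists also hold the authors' fold enrichment, a ratio over local background. No read counts were analysed here, so depth is unknown.

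Culture peaks were merged where they overlapped by 1 bp or more (Python 3 with pandas and numpy). A skin peak counted as present at an overlap of 1 bp. Genes and TSSs came from GENCODE M21, with the nearest TSS of a protein-coding transcript measured from the region's centre, and sequence from GRCm38.p6 (RefSeq). Motifs were searched as exact letters in the central 200 bp on both strands. Merging and scanning were tested on simulated peaks and planted motifs. No significance test was run, because the members were selected on the peak lists and replicates were pooled. Shares carry 95% Wilson intervals.

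The members and the gene, marker and motif lists were chosen with earlier results of these data known. The text names the 10 members with the highest lowest score, the 5 members with the lowest and the 5 nearest misses, the strongest member of each gene list, the 10 genes with most members (ties by symbol) and the delivered genes. The strongest member of 1 gene list is not reported here. Alternatives changed the score threshold, list length, overlap, merging distance, the lists in the rule, the motif window, the TSS distance and the skin threshold. An alternative without members near other lists' peaks and one by chromosome were added after the data were seen. Peaks on coding exons of Sox9, Fos and Arid1a were counted per list by any overlap, a check added after the data were seen.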

Additional observations from a re-analysis of the deposited data

How the results depend on the processing

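The number of members was 763 with a score of at least 5 in the 3 lists, 3950 with the 4 lists noDOX, WT-SOX9, noHMG-SOX9 and noTA-SOX9 only, and 1221 on the chromosomes with a shift difference of at most 0.1. In the other 6 alternatives it was between 1801 and 3027. With the score minimum of 5 in all culture lists the share with a D0 peak was 14.4%, with a W2 peak 14.8% and with a W6 peak 23.4%. With that minimum in the 3 lists alone these shares were 8.65%, 7.86% and 13.5%, and 1.83% lay within 1 kb of a TSS. Without AFOS in the rule the shares were 11.4% at D0, 11.4% at W2, 18.9% at W6, 4.26% within 1 kb of a TSS and 33.4% with an AP1 match. With the 4 lists they were 12.6% at D0, 12.6% at W2, 20.5% at W6 and 32.9% with an AP1 match, and the median GC content was 48.0%. With skin peaks of at least 5 the shares were 6.68% at D0, 6.86% at W2 and 9.60% at W6. Over the full region 56.6% of members had an AP1 match (36.3% of all culture regions), 12.1% a SOX match (15.5%) and the median GC content was 46.7%. Within 5 kb of a TSS lay 12.7%. Apart from the full-region AP1 and SOX matches, these alternatives were computed for the members alone, without the share over all culture regions. The cause of these shifts was not tested. The other 52 values stayed within the interval of the reported share or within 1.5 times the reported count. No paired analysis was possible because the replicates were pooled before peak calling and the results come from no test. Leaving out replicates was not possible for the same reason.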

Other observations

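NF-kB matches differed between the classes that share lists with the members. They were in 3.98% of the members and 3.23% of all culture regions, in 8.11% of the regions open in noTA-SOX9 only, in 7.30% of those in noHMG-SOX9 and noTA-SOX9 only and in 9.72% of those open in noDOX as well as the members' 3 lists. Regions in AFOS only had 1.85% and those of the SOX9-active arms 1.57%. NF-kB is a transcription factor of inflammation and stress.

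Regions open in noHMG-SOX9 only were unlike the members in other ways. CTCF matches, the motif of the insulator protein, were in 5.48% of them against 0.442% of the members, and 18.2% of them were at least 50% repeat-masked in the central 200 bp, against 4.56% of the members. Their AP1 share was 17.7%. The members' scores took 565 distinct values at 2 decimals in noHMG-SOX9, against 1036 in noTA-SOX9 and 956 in AFOS, which shows as bands in the plot of member scores. These values were looked up after the data were seen and were not tested.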
